A study of Mus musculus with 31 samples.

Results

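The respiratory chain of the mitochondrion is built from proteins of 2 genomes, and 45 of the 485 genes in the table of choroid plexus T cells belonged to it by their symbols. Of these, 13 were encoded by the mitochondrial genome (symbols starting with mt., where the dot stands for a hyphen) and 32 by the nuclear genome (7 symbols starting with Nduf, 5 with Uqcr, 10 with Cox, 10 with Atp5 and 0 with Sdh, so complex II was not analysed here). RNA was measured in 31 libraries, each made from 6 to 20 T cells sorted from the choroid plexus, the tissue of the brain ventricles that secretes cerebrospinal fluid. The cells came from female C57BL6/J mice that lived from weaning at 4 weeks of age, for 4 weeks, either in an enriched environment (EE, large cages with running wheels, toys and tunnels) or in a standard environment (SE, smaller cages without objects). CD4+ T cells gave 9 libraries from EE (CD4 EE) and 8 from SE (CD4 SE), and CD8+ T cells gave 7 from EE (CD8 EE) and 7 from SE (CD8 SE). The study compared EE vs. SE, and since all animals of an environment were kept together in each experiment, effects of the cage and of the environment cannot be told apart. The first number of each sample title was 1 in 19 libraries and 2 in 12 libraries. The labels do not say what it stands for. Choroid plexus was collected in separate series of experiments, which this title number may mark.

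Electrons pass along the respiratory chain from complexes I and II through complex III to complex IV, and the proton gradient that this builds drives ATP synthase, complex V. The mitochondrial genome encodes core subunits of complexes I, III, IV and V together with the 12S and 16S ribosomal RNAs (rRNAs) on which those subunits are translated, and its genes are transcribed as long precursors that are then cut. The nucleus encodes all other subunits, which are imported as proteins. In T cells, respiration carries naive and memory cells, while glycolysis rises on activation.

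The values were counts of unique molecular identifiers (UMIs, short tags that mark each captured cDNA molecule once) that the authors divided by one size factor per library, here called normalised UMI counts. UMI totals over the table ran from 1910 to 26395 per library, from 1910 to 10089 for title number 1 and from 7657 to 26395 for title number 2, so depth moved with the title number. Cd8a and Cd8b1, the chains of the CD8 coreceptor, were at 0 in all 17 CD4 libraries, from which the authors had removed samples with such transcripts, and Cd4 was at 0 in all 14 CD8 libraries and in 1 CD4 library. Ttr, the transthyretin gene that marks choroid plexus epithelium, lay between 68.0 and 240 normalised UMI counts in every library, although the cells had been sorted as CD3+. In such pools, fewer cells of a type and less RNA per cell cannot be told apart.

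The cDNA was tagged at the 5′ ends of the transcripts by template switching, so a UMI stands for a molecule and values were not divided by length. The first 60 bases of the mitochondrial transcripts that the comparisons below turn on are therefore shown, from GENCODE on GRCm38, plus strand, with the first codon of each mRNA in capitals and none in the rRNAs. Where the reads of each UMI began was not checked. The last of them, mt.Co2, is shown because its 60 bases were found whole in an annotated pseudogene.

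mt.Rnr1 (12S rRNA, gene chrM:70-1024): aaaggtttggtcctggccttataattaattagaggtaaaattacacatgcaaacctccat

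mt.Rnr2 (16S rRNA, gene chrM:1094-2675): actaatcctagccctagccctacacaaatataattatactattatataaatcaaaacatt

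mt.Nd1 (complex I, gene chrM:2751-3707): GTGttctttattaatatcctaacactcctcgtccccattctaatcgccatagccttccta

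mt.Co1 (complex IV, gene chrM:5328-6872): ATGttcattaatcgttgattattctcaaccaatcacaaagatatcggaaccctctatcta

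mt.Atp8 (complex V, gene chrM:7766-7969): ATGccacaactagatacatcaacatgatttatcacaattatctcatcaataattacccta

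mt.Cytb (complex III, gene chrM:14145-15288): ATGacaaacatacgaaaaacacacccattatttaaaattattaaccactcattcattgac

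mt.Co2 (complex IV, gene chrM:7013-7696): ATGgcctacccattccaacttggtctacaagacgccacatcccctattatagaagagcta

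The mt.Co2 sequence is that of Gm28661, an unprocessed pseudogene. The starts of mt.Co3, mt.Atp6, mt.Nd4 and mt.Nd4l were likewise found whole in annotated pseudogenes (Gm28437, Gm10925, Gm28439 and Gm10222). Of all 31-base words in the transcript, 100% were shared with another gene for mt.Co2, 99.9% for mt.Co3, 99.5% for mt.Atp6, 98.9% for mt.Nd4l, 63.9% for mt.Co1 and 62.8% for mt.Nd4, against 0% for mt.Rnr1 and mt.Nd1 and 6.55% for mt.Cytb. None of the 5 pseudogenes named here was in the table, and reads of such genes could have been split or dropped in counting, so their values, and that of mt.Co1, are uncertain. Among the nuclear members, the share was highest for Atp5o (49.2%) and Atp5g2 (40.2%).

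The mitochondrial members were spread over a wider range of levels than the nuclear members. Over all 31 libraries, the mean normalised UMI count was 56.6 ± 24.3 (SD) for mt.Cytb, the cytochrome b of complex III, and 43.0 ± 17.1 for mt.Co1, the catalytic subunit of complex IV. Next were mt.Rnr2 at 31.4 ± 16.5 and mt.Nd1, a complex I core subunit, at 28.5 ± 14.0, whose means differed by far less than their SDs. The other mitochondrial members lay between 15.2 ± 16.4 for mt.Rnr1 and 4.04 ± 2.60 for mt.Co2. Each step in that lower part of the order (mt.Co3 13.8, mt.Atp6 12.3, mt.Nd4 12.0, mt.Nd2 10.1, mt.Atp8 7.26, mt.Nd4l 6.53, mt.Nd5 5.02) was smaller than the spread between libraries. The 5 mRNAs whose starts are also found in pseudogenes lay between 4.04 and 13.8, and the part of that sharing in their levels was not tested.

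Nuclear members lay between 3.77 (Atp5g2, a copy of the membrane ring subunit c of complex V) and 10.9 (Cox6b1, a complex IV subunit on the intermembrane side). Within complex I the means ran from 4.18 (Ndufa7) to 7.60 (Ndufa3), both accessory subunits. In complex III they ran from 4.00 (Uqcrc1, a core protein) to 6.18 (Uqcrq). In complex IV, Ndufa4 had the lowest mean (4.19) and Cox6b1 the highest. In complex V, the catalytic β subunit gene Atp5b had the highest mean (9.76). In sum, the 13 mitochondrial members made up 3.36% of all UMIs of the table (8532 UMIs) and the 32 nuclear members 3.13% (7926 UMIs). These pooled shares weigh deep libraries most. As means over the 31 libraries, the shares were 4.01% ± 1.44% (SD) and 3.22% ± 0.48%. At least 1 UMI was found in all 31 libraries for 22 of the 45 members, and the others were found in 28 to 30.

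**Figure D1:**
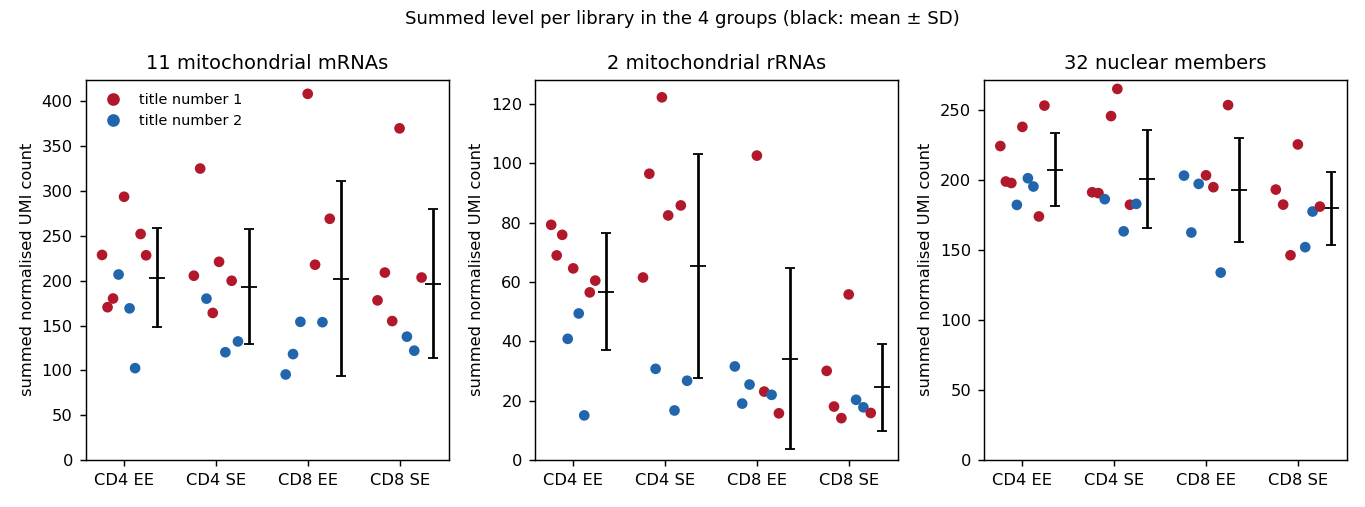
Summed normalised UMI counts of the 11 mitochondrial mRNAs, the 2 mitochondrial rRNAs and the 32 nuclear members, each point a library, coloured by title number, with mean ± SD in black for the 4 groups on the x axis. EE and SE libraries overlap in each panel, the rRNA sums are higher in CD4 than in CD8 on average, and the libraries of title number 2 lie in the lower part of the mitochondrial panels.

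In CD4 libraries, EE vs. SE left the respiratory chain genes without a called difference. Of the 45 members, 0 had an adjusted p under 0.05 (limma), against 0% of all 483 genes tested. By unadjusted p, 1 member was under 0.05 of 18 genes in all, and edgeR and DESeq2 each called 0 members, with 0 members under an unadjusted p of 0.05. The mitochondrial mRNAs summed to 204 ± 55.7 (SD over 9 libraries) in EE and to 194 ± 63.8 (SD over 8 libraries) in SE, and the nuclear members to 207 ± 26 and 201 ± 35.1. Both differences were smaller than the spread between libraries.

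The member with the smallest p in CD4 was mt.Nd4, a complex I core subunit, with a normalised UMI count of 5.46 to 29.4 (median 10.7) in EE and 1.75 to 15.2 (median 6.87) in SE. The groups overlapped, and the log2 fold change was 0.72 ± 0.35 (SE, adjusted p = 0.992). Of the nuclear members, Cox6b1 ran from 7.24 to 22.9 (median 14.1) in EE and from 2.62 to 16.1 (median 9.83) in SE, with a log2 fold change of 0.63 ± 0.31 (adjusted p = 0.992). On the same scale the values were 0.77 for Uqcrh, the complex III hinge protein, 0.51 for Atp5o, -0.47 for both Atp5g3 and Atp5g2, and -0.49 for Ndufa2, each with an adjusted p of 0.992. Over all members of a genome, the median log2 fold change was 0.09 for the mitochondrial and -0.04 for the nuclear members, beside -0.04 for all genes. No complex stood out, since the medians by complex and genome lay between -0.14 (10 nuclear complex V genes) and 0.19 (5 mitochondrial complex I genes), and 0 members of any complex were called.

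Within title number 1, CD4 libraries had a lower median mt.Rnr1 in EE, which did not pass the test. Its normalised UMI count was 18.5 to 26.1 (median 21.3, n = 6) in EE and 24.9 to 64.5 (median 38.6, n = 5) in SE. Only 1 of the 5 SE libraries lay inside the EE range. The log2 fold change was -0.78 (adjusted p = 0.834), against 0.48 within title number 2 (adjusted p = 0.911). In the CD8 libraries of title number 1 it was 0.93 (adjusted p = 0.912), and this value rested on CD8 EE replicate 4, at 49.3. The other EE libraries there had 3.46 and 5.89, inside the SE range of 2.15 to 8.27.

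In CD8 libraries, EE vs. SE again called 0 of the 45 members (limma), against 0% of all 484 genes tested. By unadjusted p, 1 member was under 0.05 of 12 genes in all. edgeR and DESeq2 called 0 members, and 1 and 0 members had an unadjusted p under 0.05. The mitochondrial mRNAs summed to 202 ± 108 (SD over 7 libraries) in EE and to 196 ± 83.1 (SD over 7 libraries) in SE, and the nuclear members to 193 ± 37.2 and 180 ± 26.4. The values of EE and SE overlapped in both. The title numbers were unevenly spread, with 3 EE and 5 SE libraries of number 1, and 4 and 2 of number 2. Within number 1 the mitochondrial mRNA sum was 298.5 ± 98.7 in EE and 223.1 ± 84.9 in SE, with overlapping ranges. Within number 2 it was 130.3 ± 28.8 and 129.7 ± 11.1. The main test had no term for the title number.

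The smallest p belonged to Atp5e, the ε subunit gene of complex V. Its normalised UMI count was 5.87 to 8.29 (median 6.92) in CD8 EE and 0 to 9.87 (median 4.52) in CD8 SE. The EE libraries fell inside the SE range, whose 0 was CD8 SE replicate 3, where 3 UMIs would be 5.28. The log2 fold change was 0.45 by edgeR and 0.87 ± 0.40 by limma (adjusted p = 0.95). The complex IV genes Cox6c and Cox4i1 had 0.64 and 0.56. Lower values in EE were -0.79 for Atp5c1, the γ subunit gene of the complex V stalk, -0.62 for Atp5o and -0.37 for Cox6b1, with adjusted p from 0.95 to 0.99. The median log2 fold change was 0.03 over the mitochondrial and 0.13 over the nuclear members, beside 0.04 for all genes. As a test of whether the housing difference itself differed between the cell types, the interaction called 0 members (limma), against 0% of 485 genes. By unadjusted p, 1 member was under 0.05 of 12 genes in all, and edgeR and DESeq2 called 0 genes and had 0 members under an unadjusted p of 0.05. Its values with the smallest p were 1.00 for Cox6b1, 1.13 for Atp5o and 1.01 for Atp5c1 on the positive side, and -1.01 for Atp5g2, -0.92 for Atp5b and -1.03 for Ndufa7 on the negative side (adjusted p = 0.976).

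**Figure D2:**
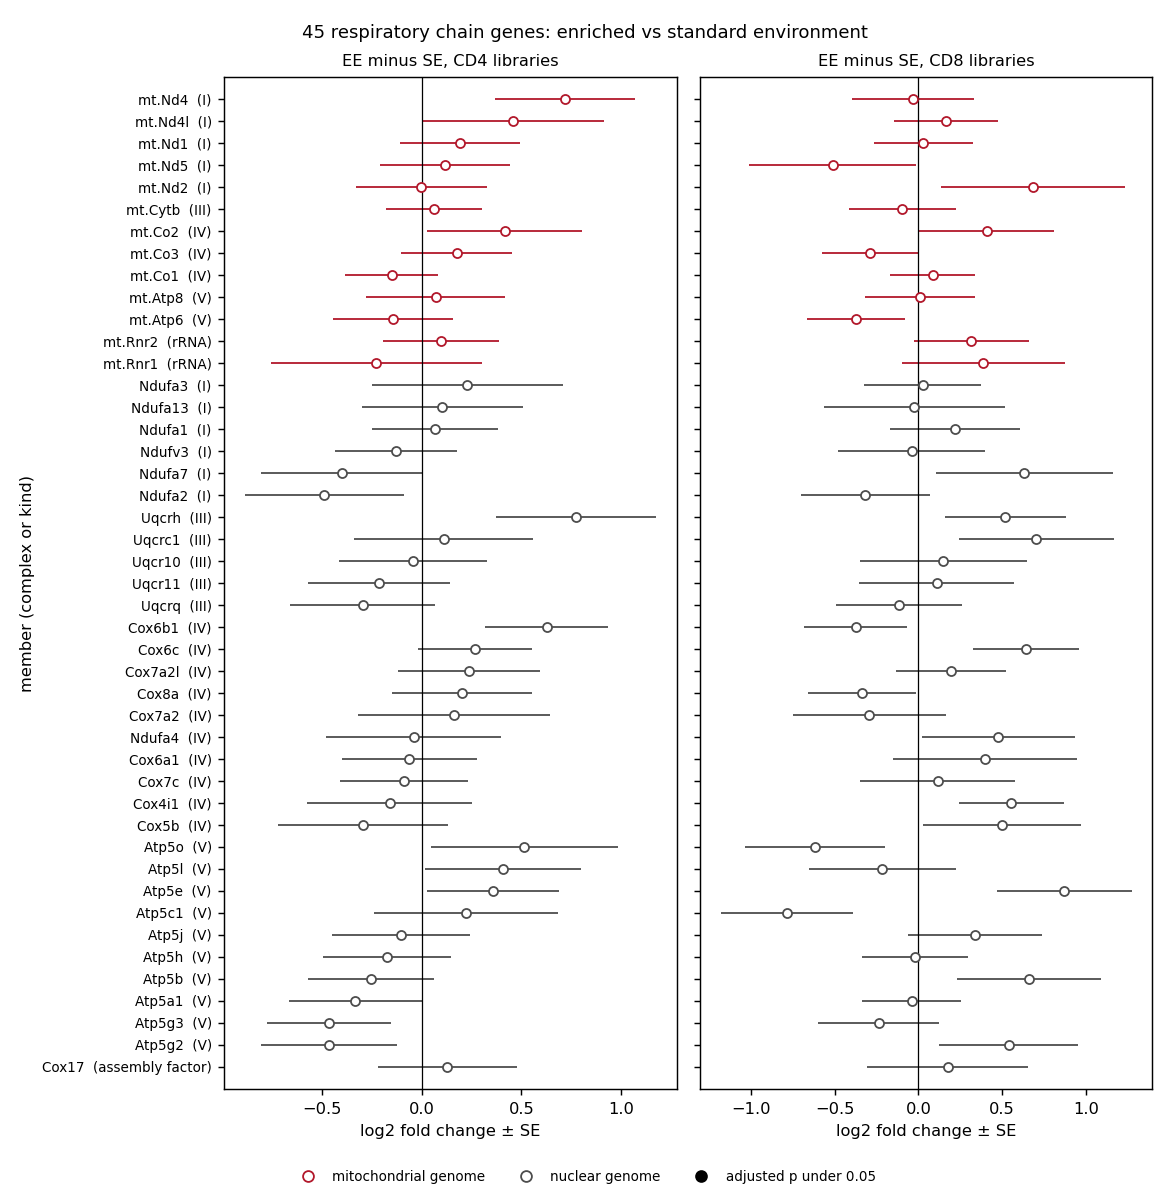
Log2 fold change ± SE of EE minus SE for the 45 members, in CD4 libraries on the left and CD8 libraries on the right, with the complex or kind in brackets, red for the mitochondrial and grey for the nuclear genome. All points are open because 0 members had an adjusted p under 0.05, and values from -0.79 to 0.87 lie on both sides of 0 in either genome.

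Between the cell types, both mitochondrial rRNAs were higher in CD4 than in CD8 libraries, while the summed mitochondrial mRNAs were at nearly the same level. Of the 45 members, 2 were called when all libraries were compared with housing in the model, against 7.42% of all 485 genes tested, and both were higher in CD4, against 4.33% of all genes in that direction. These 2 were the 2 rRNAs. mt.Rnr2 had normalised UMI counts of 11.6 to 57.9 (median 43.1) in CD4 EE, 13.5 to 57.8 (median 40.3) in CD4 SE, 9.82 to 53.4 (median 19.6) in CD8 EE and 7.04 to 47.5 (median 15.5) in CD8 SE. The ranges overlapped, while both CD4 medians lay above both CD8 medians. Its log2 fold change was 0.91 ± 0.23 (adjusted p = 0.0092).

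mt.Rnr1 had 3.41 to 26.1 (median 20.6) in CD4 EE, 1.37 to 64.5 (median 27.7) in CD4 SE, 2.06 to 49.3 (median 4.61) in CD8 EE and 2.15 to 8.27 (median 3.48) in CD8 SE. High and low libraries occurred in both CD4 groups. Its log2 fold change was 1.40 ± 0.39 (adjusted p = 0.0169). Within title number 1 the values were 1.95 for mt.Rnr1 (adjusted p = 0.000255) and 1.26 for mt.Rnr2 (adjusted p = 0.0034), and within title number 2 they were 0.31 (adjusted p = 0.705) and 0.33 (adjusted p = 0.555). So the difference passed the test within title number 1 and missed it within title number 2. The difference between the title numbers itself was not called (mt.Rnr1 -1.66, adjusted p = 0.366; mt.Rnr2 -0.93, adjusted p = 0.623), in a comparison added after the data were seen that called 0 members by limma, edgeR or DESeq2, against 0.412% of 485 genes, with 4 members under an unadjusted p of 0.05. That depended on 1 library: without CD8 EE replicate 4, mt.Rnr1 was called (-2.15, adjusted p = 0.00719).

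Neither rRNA was called among EE libraries alone or SE libraries alone, where the log2 fold changes were 1.10 and 1.72 for mt.Rnr1 and 0.80 and 1.03 for mt.Rnr2 (adjusted p from 0.0944 to 0.286). With Ttr as a covariate, both calls were lost, at 0.92 (adjusted p = 0.192) for mt.Rnr1 and 0.63 (adjusted p = 0.103) for mt.Rnr2. The Ttr level itself was 70.5 to 233 (median 154) in CD4 and 68.0 to 240 (median 89.9) in CD8. Without the 3 CD8 libraries with most Ttr, the fold changes were 1.77 (adjusted p = 0.00165) and 1.07 (adjusted p = 0.000806).

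Of all 485 genes, limma called 36 between the cell types, with 108 under an unadjusted p of 0.05, edgeR called 46 and DESeq2 called 55. Of the 32 nuclear members, 0 were called by limma, with 3 under an unadjusted p of 0.05, and edgeR called 1 and DESeq2 called 2. Ndufv3, a complex I subunit of the electron input module, was nearest to the threshold, with 3.42 to 14.0 (median 6.17) in CD4 and 0.294 to 11.3 (median 3.58) in CD8. The log2 fold change was 0.76 ± 0.25 (adjusted p = 0.051), and with the mouse as a replicate block it was 0.75 and passed the test (adjusted p = 0.0432). Atp5g3, another subunit c gene, had 0.57 (adjusted p = 0.12, and 0.0391 by edgeR), and Uqcr10, a small complex III subunit, had 0.72 (adjusted p = 0.143). On the CD8 side were Atp5h (-0.36), Ndufa4 (-0.48) and Atp5o (-0.39), with adjusted p from 0.331 to 0.512. The median over the 6 nuclear complex I genes was 0.41, with 5 of 6 higher in CD4, beside 0.07 for all genes and -0.13 for the 10 complex V genes. The mitochondrial mRNAs of complex I had a median of -0.03, with 2 of 5 higher in CD4.

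Title number gave the clearest split among these genes. The summed mitochondrial mRNA level was 236 ± 69.7 (SD, n = 19) for number 1 and 141 ± 33.0 (n = 12) for number 2, a 1.65-fold difference of geometric means. The nuclear sum was 207 ± 32 and 178 ± 21.4, a 1.16-fold difference. The ratio of all mitochondrial to all nuclear members was 1.08 to 2.52 (median 1.25) for number 1 and 0.601 to 1.36 (median 0.89) for number 2. The numbers overlapped in all 3 measures, and the mitochondrial sums moved further apart than the nuclear ones.

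By gene, 5 of the 45 members were called between the title numbers with the group as a term, against 10.7% of all 485 genes tested. All 5 were mitochondrial and lower in number 2, against 3.71% of all genes in that direction. Of the 13 mitochondrial members 12 had a negative log2 fold change, with a median of -0.57, and of the 32 nuclear members 21 did, with a median of -0.07, beside 0.03 for all genes. After rescaling of the libraries to the same total these medians were -0.48, 0.01 and 0.11, so the sign of the nuclear median depended on the scaling while that of the mitochondrial median did not.

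mt.Cytb had 29.9 to 123 (median 66.8) normalised UMI counts in number 1 and 16.9 to 52.2 (median 36.0) in number 2. The ranges overlapped in their middle part. It fell by 0.92 ± 0.16 on the log2 scale (adjusted p = 0.000245). mt.Co1 went from 31.1 to 94.0 (median 47.7) in number 1 to 23.1 to 44.9 (median 30.2) in number 2, with a log2 fold change of -0.67 ± 0.15 (adjusted p = 0.0022). mt.Nd1 went from 14.9 to 63.6 (median 30.0) to 10.4 to 28.8 (median 18.4), with -0.84 ± 0.19 (adjusted p = 0.00266). mt.Atp8, a small subunit of the proton channel part of complex V, went from 4.29 to 15.7 (median 8.27) to 1.34 to 7.29 (median 4.82), with -0.82 ± 0.22 (adjusted p = 0.0096). These 4 mRNAs are subunits of complexes III, IV, I and V, so each complex with mitochondrial subunits had 1 called member.

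The mRNAs that missed the threshold were mt.Atp6 (-0.54, adjusted p = 0.0809), mt.Nd4 (-0.60, adjusted p = 0.132), mt.Co3 (-0.44, adjusted p = 0.143), mt.Nd5, mt.Nd2 and mt.Nd4l, the last 3 with -0.45, -0.43 and -0.38 (adjusted p from 0.368 to 0.525). mt.Co2 alone had a positive value of 0.18. Of the called mRNAs, mt.Co1 shares 63.9% of its words with pseudogenes, and the part of such sharing in these calls was not tested. Atp8 and Atp6 overlap on the genome, as do Nd4l and Nd4 and the ends of Atp6 and Co3, so a UMI there could fall to either gene.

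**Figure D3:**
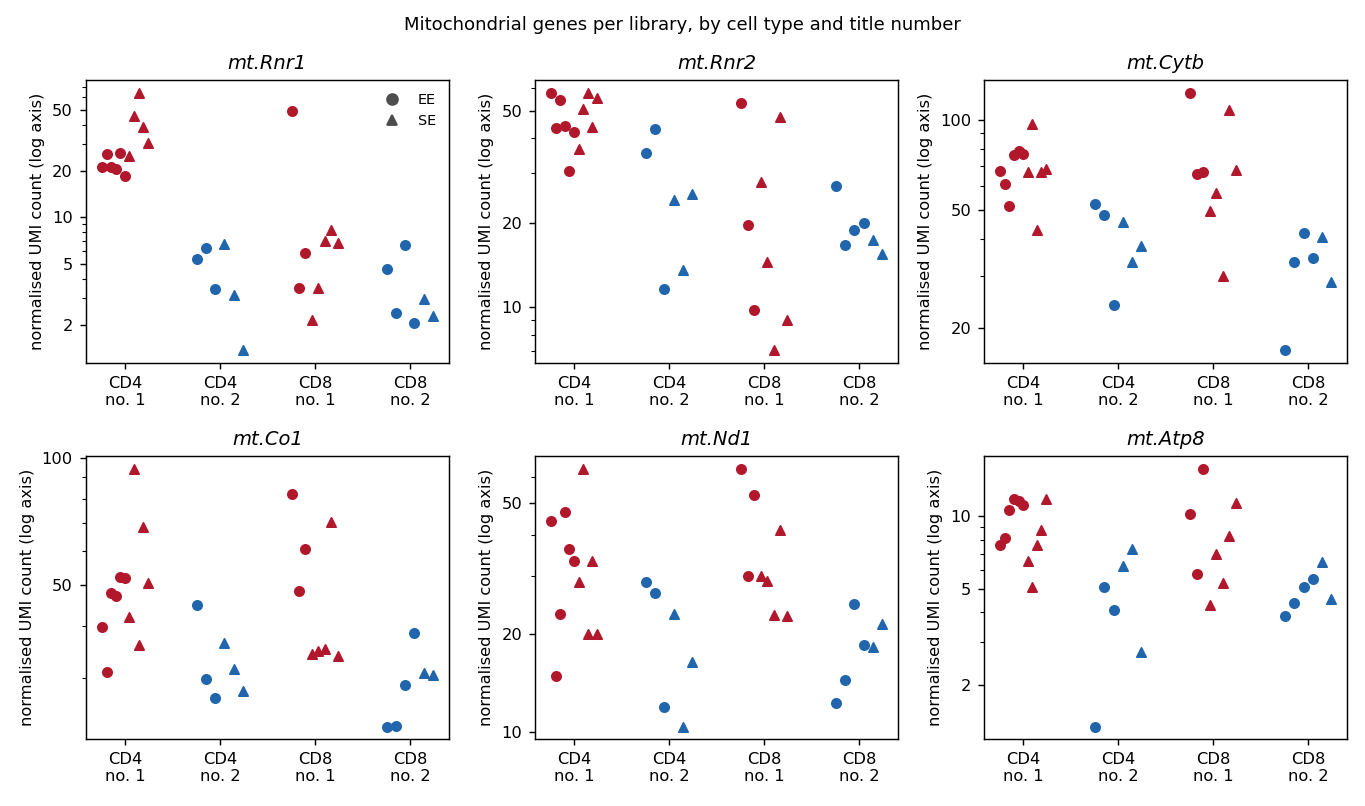
Normalised UMI counts (log axis) of 6 mitochondrial genes in each library, split on the x axis by cell type and title number, with circles for EE, triangles for SE, red for number 1 and blue for number 2. mt.Rnr1 lies at 18.5 to 64.5 in CD4 libraries of number 1 and at 1.37 to 6.72 in CD4 libraries of number 2, while the ranges of the 4 mRNAs overlap between numbers.

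mt.Rnr1 showed the largest change of all members. In CD4 libraries it was 18.5 to 64.5 (median 25.7, n = 11) for number 1 and 1.37 to 6.72 (median 4.39, n = 6) for number 2, with no overlap. In CD8 libraries it was 2.15 to 49.3 (median 6.34, n = 8) and 2.06 to 6.65 (median 2.67, n = 6). A single CD8 library, CD8 EE replicate 4, held 49.3, and the other 7 of number 1 were at or below 8.27. The log2 fold change was -1.90 ± 0.29 over all libraries (adjusted p = 2.51e-05), -2.58 in CD4 alone (adjusted p = 9.78e-08) and -1.07 in CD8 alone (adjusted p = 0.367). mt.Rnr2, cut from the same precursor, was less split, at -0.57 ± 0.23 (adjusted p = 0.0986), with -0.97 in CD4 (adjusted p = 0.0138) and -0.08 in CD8 (adjusted p = 0.943).

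Malat1, a nuclear noncoding RNA, was also high in the CD4 libraries of number 1, at 49.9 to 250 (median 203) normalised UMI counts. It was at most 8.23 in every other library, including CD8 EE replicate 4 with 2.05. The split of Malat1 therefore matched that of mt.Rnr1 in the CD4 libraries and differed from it in that CD8 library.

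Within CD4 libraries alone, 3 members were called between the title numbers (mt.Rnr1, mt.Rnr2 and mt.Cytb). Within CD8 libraries alone 4 were called (mt.Cytb, mt.Co1, mt.Nd1 and mt.Co3). The calls over all genes in each cell type alone are given below with the alternative runs. The mitochondrial mRNA sum was 224 ± 50.2 (SD, n = 11) and 152 ± 39.9 (n = 6) in CD4, and 251 ± 91.8 (n = 8) and 130 ± 22.8 (n = 6) in CD8, for numbers 1 and 2. In CD8 every number 1 library lay above every number 2 library, though by a narrow margin, with 155 as the lowest and 154 as the highest. In CD4 the numbers overlapped.

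Of all 485 genes, limma called 52 between the title numbers, with 128 under an unadjusted p of 0.05, edgeR called 90 and DESeq2 called 104. Among the 32 nuclear members 0 were called by limma, with 1 under an unadjusted p of 0.05, and edgeR called 1 and DESeq2 called 2. The smallest p belonged to Atp5j, the coupling factor 6 gene of complex V, with 1.76 to 14.9 (median 6.92) in number 1 and 2.06 to 6.59 (median 4.12) in number 2, and a log2 fold change of -0.60 ± 0.26 (adjusted p = 0.13, and 0.036 by edgeR). Uqcrq (-0.49) and Ndufv3 (-0.41) followed on the lower side. On the higher side were Cox7a2l, which takes part in joining complexes III and IV, at 0.46, Atp5a1, the α subunit gene of complex V, at 0.40 and Atp5g2 at 0.24. Nuclear medians by complex were -0.20 for complex I, -0.29 for III, -0.07 for IV and 0.03 for V, each nearer to 0 than that of the mitochondrial members of the same complex (-0.45, -0.92, -0.44 and -0.68). Cox17, a copper carrier needed to assemble complex IV, had -0.33.

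**Figure D4:**
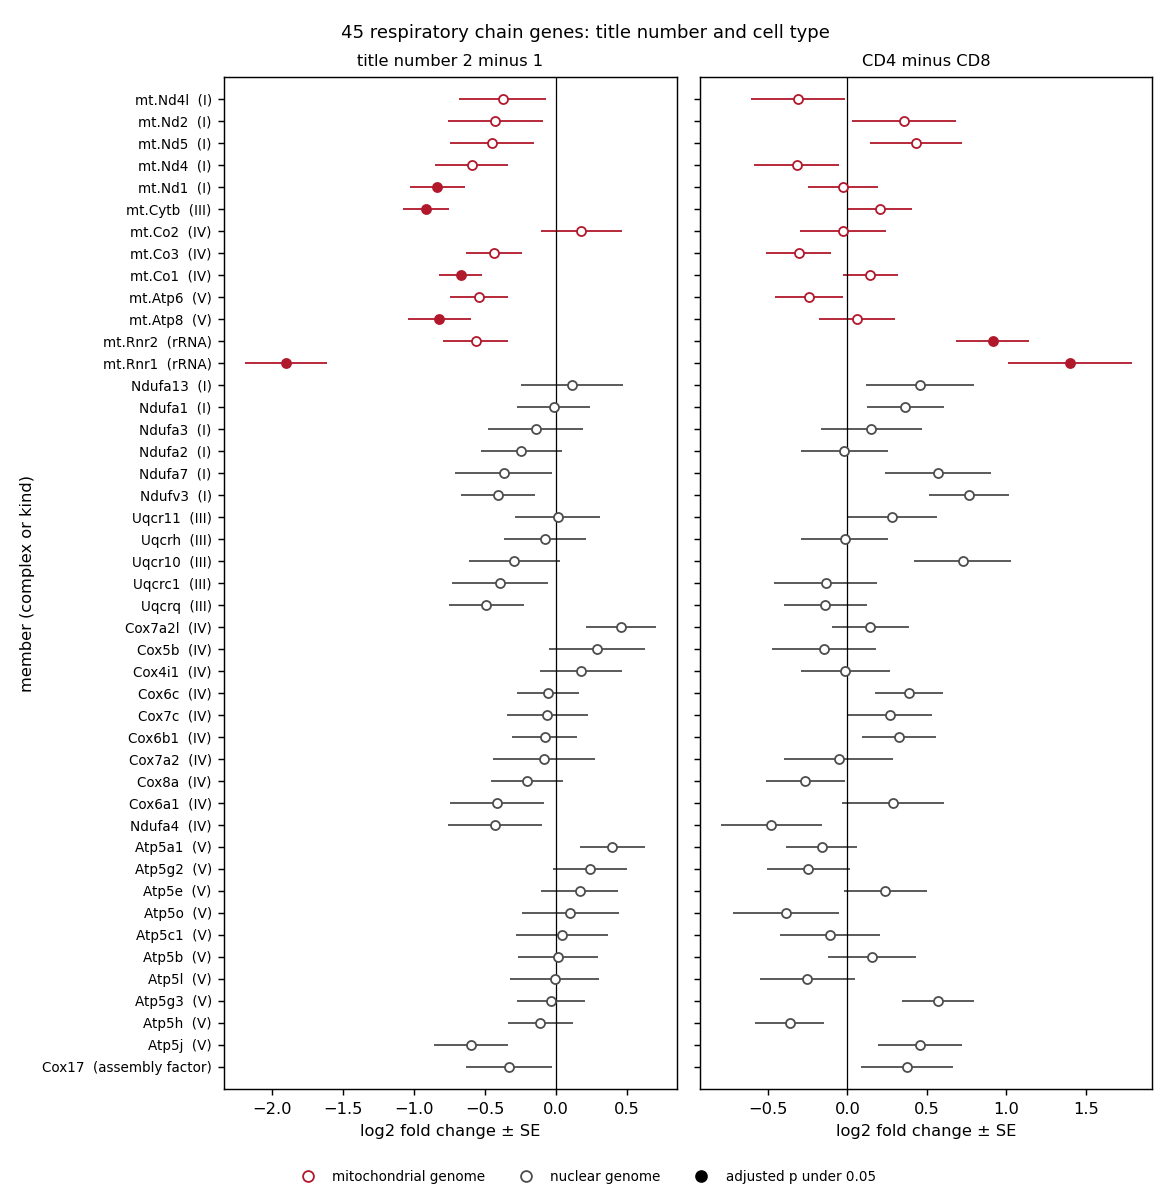
Log2 fold change ± SE for the 45 members, of title number 2 minus 1 on the left and CD4 minus CD8 on the right, with the complex or kind in brackets and filled points for an adjusted p under 0.05. On the left 12 of 13 mitochondrial points (red) lie below 0 and 5 are filled, and on the right the 2 rRNAs, at 0.91 and 1.40, are the filled points.

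Of the markers of other cells, 1 was called between the title numbers. Of 11 choroid plexus epithelium markers 2 were in the table, Ttr and Enpp2, the others were not analysed here, and neither was at 0 in any library. Their sum was 74.9 to 312 (median 173) for number 1 and 76.4 to 200 (median 115) for number 2, and Ttr was called lower in number 2 (-0.48 ± 0.16, adjusted p = 0.043) while Enpp2 was not (-0.54, adjusted p = 0.156). Of 13 myeloid markers only Cst3 was in the table, at 0 to 24.6 (median 7.62) and 2.73 to 12.1 (median 4.22), and it was not called (-0.54, adjusted p = 0.315). The 8 T cell markers present had a sum of 49.6 to 91.6 (median 68.3) and 35.8 to 62.6 (median 54.4). Of these 8, only 1 was called, the CD3 chain gene Cd3g, which was lower in number 2 (-0.72, adjusted p = 0.00565). The median log2 fold change over the 8 was -0.16. Another CD3 chain gene, Cd3d, had nearly equal medians of 8.81 and 8.78. So the summed markers of the epithelium and of the T cells both had the lower median in number 2.

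With Ttr as a covariate, 4 members were still called between the title numbers, and mt.Rnr1 kept -1.71 (adjusted p = 0.00148), while mt.Nd1 went to -0.54 (adjusted p = 0.066). The 3 CD8 libraries with most Ttr were CD8 EE replicate 4 (Ttr 240), CD8 EE replicate 7 (236) and CD8 SE replicate 4 (201). They also held the highest mitochondrial mRNA sums of the CD8 libraries, 409, 269 and 370, while the other CD8 libraries had 95.4 to 218. Without these 3 libraries the same 5 members were called as with all libraries. The calls over all genes with Ttr as a covariate or without these libraries are not reported here. Depth moved with the title number as well, and its part in these differences was not tested.

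**Figure D5:**
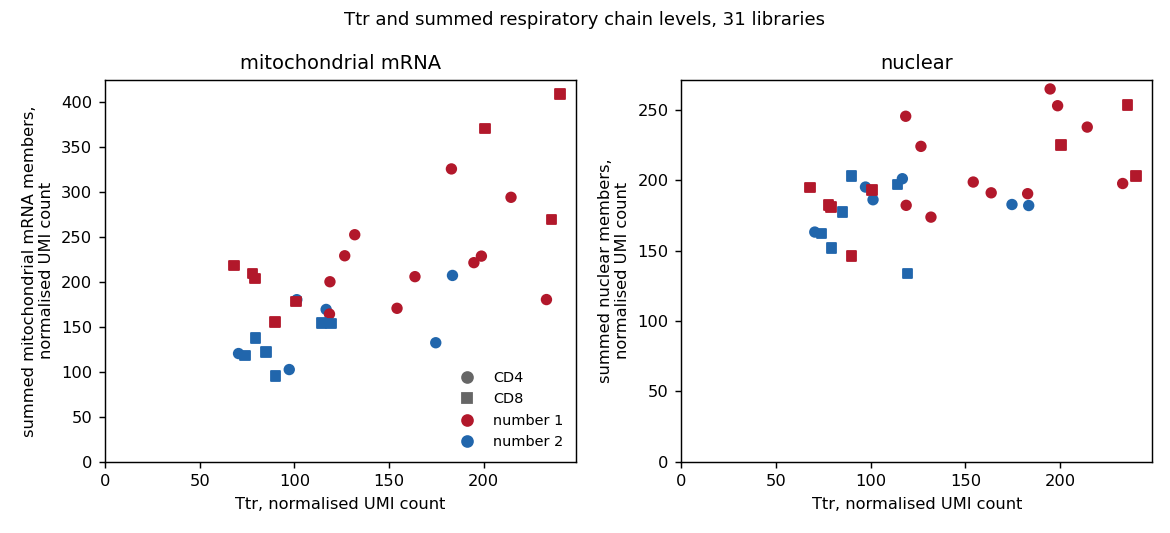
Summed normalised UMI counts of the 11 mitochondrial mRNAs (left) and the 32 nuclear members (right) against Ttr in each of the 31 libraries, with circles for CD4, squares for CD8, red for title number 1 and blue for number 2. The 3 CD8 libraries with Ttr above 200 lie at 269 to 409 in the left panel, whereas all nuclear sums lie between 134 and 265.

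Pairs of mitochondrial mRNAs had higher correlations across libraries than pairs of nuclear members. After removal of the group and title number means, Pearson's r across the 31 libraries had a median of 0.29 over the 55 pairs of mitochondrial mRNAs, with 40 pairs above 0. It was 0.04 over the 496 pairs of nuclear members, -0.03 over the 352 pairs of a mitochondrial mRNA with a nuclear member and 0.01 over all gene pairs. The rRNAs had 0.48 with each other and a median of 0.22 with the mRNAs. Group and title number were removed as separate terms. A title number difference unlike between CD4 and CD8, as in both rRNAs, was therefore only partly removed, and its part in these r was not tested. These values are a description: all genes of a library share its size factor and depth, and some of the mitochondrial genes overlap. Apart from counting error, the coefficient of variation between libraries (edgeR, with group and title number in the fit) was 20.2% to 42.8% (median 29.4%) for mitochondrial and 14.9% to 44.1% (median 27.7%) for nuclear members, beside a median of 27.4% for all genes.

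Other genes of energy metabolism were few in the table. In both housing comparisons and their interaction 0 of 5 glycolysis genes, 0 of 5 mitochondrial import and carrier genes, 0 of 2 mitochondrial chaperones, and neither the mitochondrial ribosome gene Mrpl33 nor the tricarboxylic acid cycle gene Mdh2 were called, and between the cell types none of these was called either. Between the title numbers, Aldoa, the glycolytic aldolase, was lower in number 2 (-0.91 ± 0.23, adjusted p = 0.00619) and the other 4 glycolysis genes were not called. Hspe1, the co-chaperonin of the mitochondrial matrix, was higher in number 2, at 0 to 10.2 (median 3.93) in number 1 and 5.12 to 30.1 (median 13.0) in number 2. Its log2 fold change was 1.53 ± 0.30 (adjusted p = 0.00073), in the direction opposite to the called mitochondrial transcripts. Hspe1 is also among 16 genes of the table on a list of the stress response to tissue dissociation. Of these 16, 3 were called higher in number 2 and 0 lower, against 34 and 18 of all 485 genes. The other two were the heat shock genes Hspa1a (1.18 ± 0.32, adjusted p = 0.0096) and Hspa1b (1.47 ± 0.32, adjusted p = 0.00201), which are near-identical copies whose reads could be split. Between the cell types 2 of the 16 were called, both higher in CD4, against 21 of all 485 genes in that direction. They were Junb (1.13, adjusted p = 0.00178) and Hsp90aa1 (0.78, adjusted p = 0.0448). The part of this stress response in the differences between title numbers and cell types was not tested.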

How the data were processed

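The deposited table held normalised counts, a signal for which the authors had scaled each library's UMIs by its DESeq2 size factor. Per the labels and methods, reads were trimmed with cutadapt, mapped with STAR (2.4.0a) to mm10 and counted as UMIs per gene, and genes of low abundance were left out. Whole UMI counts were recovered in all 31 columns (100% of values). Members were taken by symbol prefix, and complexes by symbol. Members and lists were chosen with earlier results of these data known.

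The main test was limma (3.58.1, R 4.3.3) on log2(value + 1) with a trended prior, with two-sided p-values adjusted by Benjamini-Hochberg across every gene above 0 in a compared library, at a threshold of 0.05. Fold changes on this scale understate those of low genes. edgeR (4.0.16) and DESeq2 (1.42.0) on recovered counts were alternatives. Simulated data were used to test limma and edgeR, while DESeq2 was not tested in this way. Summed levels were described, with no test. Named were all mitochondrial members, nuclear members called or with the 3 smallest p in each direction, and the extremes of each complex. P-values measure the spread between libraries. Where a member had no UMI, the value of 3 UMIs in that library was listed as a floor (1.36 to 7.62 for mitochondrial members). The ranges and tests kept the 0. Such floors cover counting error only. CD4 and CD8 libraries paired through 10 mice had residual correlations of -0.22 to 0.093 (11 pairs), and CD8 SE replicates 5 and 6 share a mouse label. Over 106 pairs of libraries within groups, the chi-square per degree of freedom was 1.28 to 4.74, so none agreed within sampling noise.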

Additional observations from a re-analysis of the deposited data

Results flagged for a closer look

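In 60 sets of libraries (15 measures in 4 groups), 8 held a value set apart from the others by more than Dixon's 95% limit, where chance flags about 1 in 20 sets. CD8 EE replicate 4 gave 4 of them. Its mt.Rnr1 was 49.3 with the next library at 6.65, its mt.Rnr2 was 53.4 with the next at 26.9, its mt.Nd4 was 32.8 with the next at 15.7, and its mt.Atp6 was 20.5 with the next at 11.5. CD8 SE replicate 4 gave 3, with mt.Co1 at 70.3 (next 35.2), mt.Nd4l at 14.5 (next 6.79) and a summed mitochondrial mRNA level of 370 (next 209). Both libraries are among the 3 CD8 libraries with most Ttr, and the part of Ttr in these values was not tested. CD4 SE replicate 2 had mt.Nd1 at 63.5 with the next library at 33.3. All values are normalised UMI counts.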

How the results depend on the processing

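Of the 45 members, 0 were called in either housing comparison or the interaction under any alternative run. Over all genes, EE vs. SE in CD4 went from 0 calls to 1 with a pseudocount of 4, with edgeR and with DESeq2, and in CD8 to 1 within title number 1. Between the cell types, the 2 member calls became 4 with DESeq2 and 0 within title number 2, within EE, within SE and with Ttr as a covariate. The 36 calls over all genes became 55 with DESeq2, 20 within title number 1, 20 within number 2, 7 within EE, 14 within SE and 14 over genes with a mean of at least 5, the smaller sets having fewer libraries or genes. Between the title numbers, the 5 member calls became 10 with DESeq2 and 3 in CD4 alone, and the 52 calls over all genes became 90 with edgeR, 104 with DESeq2, 25 in CD4 alone and 10 in CD8 alone. For EE vs. SE in CD8, mt.Atp6 went from -0.37 to 0.16 within title number 2, where both SE libraries share a mouse label. The cause of the other changes was not tested.

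Leaving out single libraries kept 2 to 3 member calls between the cell types, with 24 to 44 calls over all genes. Between the title numbers it kept 5 to 6 member calls, with 46 to 69 over all genes. For the difference between title numbers it gave 0 to 1 member calls and 1 to 3 calls over all genes, with 1 member (mt.Rnr1) called without CD8 EE replicate 4, and 1 gene called without CD4 EE replicates 4 or 6, CD8 EE replicate 6, CD4 SE replicate 8 or CD8 SE replicate 5. With the mouse as a replicate block, 3 members and 53 genes were called between the cell types and 5 and 50 between the title numbers. With the animal number as a replicate block, 0 genes were called in both housing comparisons. The same animal number recurs across environments and title numbers, so that block does not stand for a mouse. Residuals of same-mouse libraries had a median r of -0.07, while the consensus correlation of the mouse block between the cell types was 0.10. The block was run as an alternative only. Depth was lower on average for title number 1 (4251 UMIs per library, against 14406), which limits low members there most.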
